A study of Mus musculus with 18 samples.

Results

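Levels of 10 genes of transforming growth factor beta (TGF-beta) and bone morphogenetic protein (BMP) signalling were followed in mouse bone marrow monocytes and neutrophils whose mice carried or lacked an inducible deletion of Zeb2. The genes are Tgfb1, Tgfbr1, Tgfbr2, Bmpr1a, Acvrl1, Smad2, Smad3, Smad4, Smad7 and Ski. They were chosen by symbol, because the Zeb2 protein binds Smads, and with earlier results of these data known. They make up 10 of the 19938 genes that the array's annotation ties to a probe set with a single symbol. Each was covered by 1 probe set, and all 10 passed the filter on low signal that left 13387 genes for testing.

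TGF-beta and BMP ligands are secreted dimers that bring together type I and type II receptor kinases on the cell surface. The type I receptor phosphorylates receptor-regulated Smads, which join Smad4, enter the nucleus and bind regulatory DNA with partner proteins. Inhibitory Smads and the corepressors Ski and SnoN hold the pathway down, and Zeb2, a zinc finger and homeodomain repressor also known as Smad-interacting protein, binds activated Smads and recruits corepressors to E-box sequences. In myeloid cells TGF-beta is known for restraining proliferation and inflammatory activation.

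The study asked what loss of Zeb2 does to gene expression in marrow cells, using Affymetrix mouse gene arrays of Ly-6C(hi) monocytes and neutrophils sorted by flow cytometry. All mice were of the C57BL/6 background and carried floxed Zeb2 alleles, written Zeb2(fl/fl). In the 4 arrays per cell type labelled Zeb2-deficient, the mice also carried Mx1-Cre(tg), a Cre recombinase transgene under an interferon-inducible promoter that acts in haematopoietic and many other cells. The 4 control arrays per cell type came from Zeb2(fl/fl) mice without Cre. Both groups had received poly(I:C), a synthetic double-stranded RNA that induces interferon and with it Cre, as 2 intraperitoneal injections of 150 µg inside 48 h, and marrow was taken 3 weeks afterwards. In addition, 1 array per cell type came from untreated Zeb2(fl/fl) mice. Ages of the mice were not given. Since the controls had no Cre, loss of Zeb2 and presence of Cre cannot be told apart. Whether arrays of the same group stem from different mice is not stated in the labels, so the p-values reflect only how these samples spread, and that spread may be technical. The labels also do not state whether monocyte and neutrophil arrays of the same number come from the same mouse. Comparisons between the cell types treat them as independent.

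Values are log2 intensities after robust multi-array averaging (RMA), so a difference of 1 is a doubling, and levels are compared between groups for the same gene only. Array medians ran from 4.81 to 4.92, and arrays of the same group correlated at r = 0.940 to 0.989 over the tested genes. Zeb2 itself read 10.08, 9.88, 9.88 and 9.86 in control monocytes against 9.75, 9.84, 9.46 and 8.74 in monocytes labelled deficient. The difference of -0.48 ± 0.24 (SE) did not pass the test (limma, Benjamini-Hochberg adjusted p = 0.272), although the groups did not overlap. Within set B, one of the 2 sets of arrays described below, it was -0.77 (adjusted p = 0.0350) and within set A -0.18, and leaving out each array in turn gave -0.61 to -0.24, with -0.24 without labelled-deficient replicate 4. In neutrophils Zeb2 read 7.19, 6.86, 7.54 and 7.40 in controls and 7.72, 7.10, 7.85 and 8.25 in arrays labelled deficient, a difference of 0.49 ± 0.24 (adjusted p = 0.972) that runs against the label. The position of this probe set relative to the deleted exon was not analysed here, and the groups are called labelled Zeb2-deficient throughout. Within each cell type the arrays also fell into 2 sets that deviated together from their group means: replicates 1 and 2 of both genotypes (set A) and control replicates 4 and 5 with deficient replicates 3 and 4 (set B). The sets are the 2 signs of the first principal component of these deviations, which held 32.4% of them. Every group of 4 is bound to split by that sign, but not bound to split into 2 and 2. Because the sets come from these same values, fits within them or with them as a block are no independent check. The labels name no batch that matches these sets. In the order in which the series lists its samples, all set A arrays and the untreated arrays come before all set B arrays. Whether that order marks a batch was not tested.

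Marker genes of other cells moved with the genotype in the monocyte arrays. All 10 markers of mature neutrophils, among them Ly6g, rose in monocytes labelled deficient, with a median rise of 2.98, and their summed log2 signal ran from 11.9 to 14.0 in control monocytes, from 14.6 to 15.1 in labelled-deficient monocytes and from 15.7 to 15.8 in neutrophils. All 6 markers of neutrophil precursors also rose, with sums of 9.18 to 11.84 in control and 11.81 to 13.7 in labelled-deficient monocytes, which just overlap. Sorted neutrophils gave lower precursor sums, 7.85 to 8.06 in controls and 7.88 to 9.21 in labelled-deficient arrays. Of these 6 markers, 4 were called higher in control monocytes than in control neutrophils (66.7%, beside 29.9% of all genes). Of 8 Ly-6C(hi) monocyte markers on the array, 4 fell and none rose, and their sums were 13.7 to 13.9 in control and 12.5 to 13.7 in labelled-deficient monocytes, against 8.26 to 8.52 in control neutrophils. Of 5 tested stem and progenitor markers, Kit (2.01) and Myb (2.09) rose and Flt3 fell (-0.88), and the list's sums were 7.77 to 8.10 in control and 8.22 to 9.53 in labelled-deficient monocytes. Of 5 tested macrophage markers Vcam1 rose (2.43) and Mrc1 fell (-1.35), with overlapping sums of 8.93 to 9.28 and 8.87 to 9.55. Of 3 tested plasmacytoid dendritic cell markers Ccr9 rose (1.08) and Tcf4 fell (-0.87), with sums of 8.22 to 8.96 in controls and 7.90 to 8.42 in labelled-deficient monocytes. None of the tested markers of megakaryocytes and platelets (4), the erythroid lineage (3), B cells (2) or T and NK cells (3) was called in limma, and 1 of them, Slc4a1, had an unadjusted p below 0.05. The part of these shifts in the results below was not tested. In such bulk samples fewer cells of a type and less RNA per cell cannot be told apart.

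In monocytes labelled Zeb2-deficient, the signal of the BMP type I receptor gene Bmpr1a rose 2.00-fold and the TGF-beta type II receptor gene Tgfbr2 fell 1.43-fold, while the other 8 genes did not pass the test. The Bmpr1a signal lay below each array's 40th percentile of probe sets in all 9 monocyte arrays and passed the filter only through the neutrophils, and whether it exceeds background in monocytes was not tested. Thus 1 of 10 genes was called higher, against 5.11% of all tested genes, and 1 of 10 lower, against 2.44%; leaving Bmpr1a out, none of the other 9 was called higher. For the same 2 genes the 4 labelled-deficient and 4 control arrays did not overlap, which held for 10% of all genes. The median difference of the 10 genes was -0.13, beside -0.03 over all genes. An unadjusted p below 0.05 was found for 6 of the 10 genes and for 20.2% of all genes.

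In neutrophils labelled deficient none of the 10 genes passed the threshold in limma, where 0.105% of all genes were called higher and 0.0149% lower. The lowest p belonged to Bmpr1a, the only one of the 10 with an unadjusted p below 0.05 (5.10% of all genes) and the only one without overlap between the groups (3.43% of all genes). The median difference was 0.05, beside -0.01 over all genes. The change in monocytes minus the change in neutrophils was not called for any of the 10 genes either, with 2.17% of all genes called higher and 0.515% lower in that contrast. An unadjusted p below 0.05 was found there for 3 of the 10 genes, Tgfbr2, Smad4 and Ski, and for 13.5% of all genes.

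The larger differences lay between the cell types. Control monocytes held more Tgfb1 than control neutrophils and less Tgfbr1, Tgfbr2, Bmpr1a, Acvrl1, Smad3 and Smad7, whereas Smad2, Smad4 and Ski did not pass the test. That is 1 of 10 genes higher in monocytes, against 29.9% of all genes, and 6 of 10 lower, against 28.7%. Bmpr1a, 1 of the 6 lower genes, passed the filter only through the neutrophils, and whether its monocyte signal exceeds background was not tested. It is part of every count and median in this comparison. The same 7 genes showed no overlap between the 4 monocyte and 4 neutrophil control arrays, as did 56.2% of all genes. Within array set A and within array set B the count was again 7 of 10, and the genes were the same. The median over the 10 genes was -0.52, beside -0.08 over all genes.

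**Figure D1:**
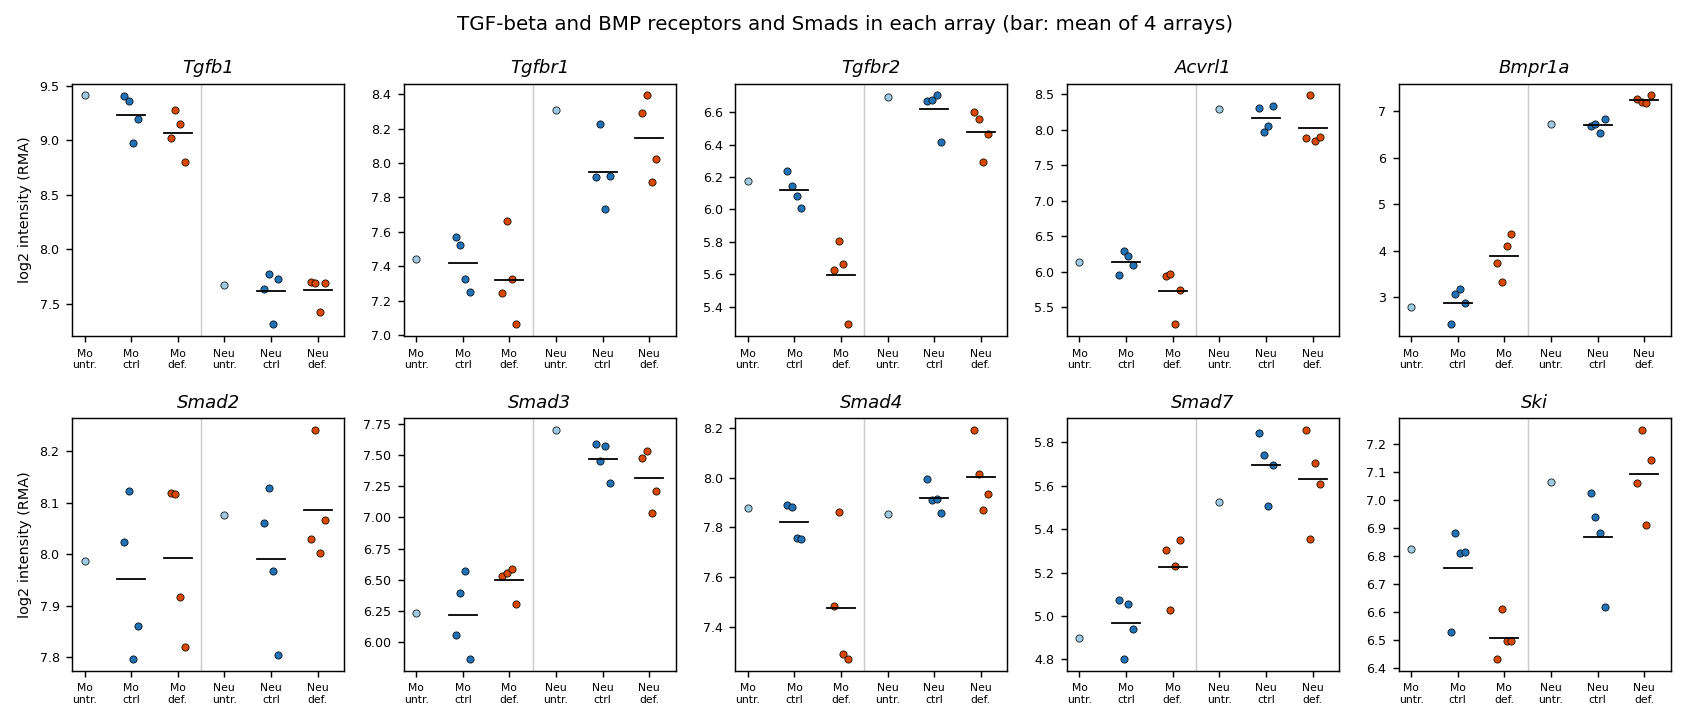
Log2 RMA intensity (vertical axes, a separate range for each gene) of the 10 genes in every array, by cell type (Mo, monocyte; Neu, neutrophil) and group (untr., untreated; ctrl, poly(I:C) control; def., labelled Zeb2-deficient); points are arrays and bars are means of 4 arrays. Tgfb1 is the only gene of the 10 that is higher in every control monocyte array than in every control neutrophil array, while Bmpr1a lies at 2.42 to 3.18 in control monocytes and at 6.54 to 6.84 in control neutrophils.

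Tgfb1 encodes the ligand TGF-beta1, which is made by many leukocytes and stored in a latent complex. Its signal was 9.41, 9.36, 8.98 and 9.19 in control monocytes and 7.64, 7.78, 7.31 and 7.73 in control neutrophils. Every monocyte array lay above every neutrophil array, a difference of 1.62 ± 0.14 or 3.08-fold (adjusted p = 1.21e-08). Labelled-deficient monocytes read 9.02, 9.28, 9.15 and 8.80, inside or just below the control range. The difference of -0.17 had a 95% confidence interval of -0.46 to 0.11 (adjusted p = 0.551). Labelled-deficient neutrophils read 7.70, 7.69, 7.43 and 7.69, with an interval of -0.27 to 0.30 for the difference.

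Tgfbr1 encodes the type I receptor for TGF-beta, the kinase that phosphorylates Smad2 and Smad3. It read 7.57, 7.53, 7.33 and 7.25 in control monocytes and 7.92, 8.23, 7.73 and 7.93 in control neutrophils. The groups did not overlap, and the monocyte minus neutrophil difference was -0.53 ± 0.15 (adjusted p = 0.00570). In labelled-deficient monocytes the values of 7.24, 7.66, 7.32 and 7.06 spread across the control range. The difference of -0.10 had an interval of -0.41 to 0.22 (adjusted p = 0.796). Labelled-deficient neutrophils, at 8.29, 8.40, 7.89 and 8.02, overlapped their controls with an interval of -0.12 to 0.51 for the difference.

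Tgfbr2 encodes the type II receptor that binds TGF-beta and activates the type I receptor. Control monocytes read 6.24, 6.14, 6.08 and 6.01, and labelled-deficient monocytes 5.63, 5.81, 5.67 and 5.29. Every labelled-deficient array lay below every control array, the difference was -0.52 ± 0.12 and the adjusted p was 0.0122. Control neutrophils lay higher than control monocytes, at 6.67, 6.68, 6.70 and 6.41, so that monocytes were at -0.50 ± 0.12 relative to neutrophils (adjusted p = 0.00193). In neutrophils labelled deficient the signal was 6.60, 6.56, 6.29 and 6.47, overlapping the controls, with a difference of -0.14 and an interval of -0.39 to 0.12. The monocyte change minus the neutrophil change was -0.38 ± 0.17 (adjusted p = 0.332). The call in monocytes was lost when only the 8 arrays compared entered the fit (adjusted p = 0.0556), and within the array sets the differences were -0.47 in set A (adjusted p = 0.229) and -0.57 in set B (adjusted p = 0.0626). All alternatives together gave adjusted p from 0.00356 to 0.229.

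Bmpr1a encodes a type I receptor for BMPs, which signals through Smad1, Smad5 and Smad9. It showed the widest gap in signal between the cell types among the 10 genes, with 2.42, 3.08, 3.18 and 2.87 in control monocytes and 6.68, 6.73, 6.54 and 6.84 in control neutrophils. The difference in signal was -3.81 ± 0.18, or 14.0-fold (adjusted p = 9.49e-12). Since the monocyte signal was not shown to exceed background, this ratio is one of signals and gives no size for the difference in RNA. Labelled-deficient monocytes read 3.74, 3.34, 4.11 and 4.37, all above the controls, a difference of 1.001 ± 0.18 with an interval of 0.61 to 1.39 (adjusted p = 0.00209). All 9 monocyte arrays, the untreated one included, gave Bmpr1a a signal below their own 40th percentile of probe sets, which lay between 4.28 and 4.50 over the 18 arrays. The gene passed the filter on low signal only through the neutrophils, no detection calls were used here, and whether its monocyte signal exceeds background was not tested. Folds that start from so dim a signal may understate the change in RNA.

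Bmpr1a and the summed neutrophil markers were both higher in the labelled-deficient monocytes of each array set. Within set A the difference was 0.79 (2 arrays against 2, adjusted p = 0.142) while the mean of the summed neutrophil markers rose by 2.76, from 12.09 to 14.85. Within set B it was 1.21 (adjusted p = 0.00123) while the mean marker sum rose by 1.26, from a higher control level of 13.79 to 15.06. Over all alternatives run, the adjusted p of the monocyte change of Bmpr1a ran from 8.11e-05 to 0.142. The part of neutrophil RNA in the rise was not tested. In neutrophils, labelled-deficient arrays read 7.26, 7.20, 7.17 and 7.34, again above all controls. That difference was 0.54 ± 0.18 or 1.46-fold, with an unadjusted p of 0.00864 and an adjusted p of 0.735 in limma, and the neutrophil marker sum there was 15.67 to 15.74 in labelled-deficient arrays and 15.75 to 15.79 in controls. Alternatives put that adjusted p between 0.184 and 0.993. The monocyte minus the neutrophil change was 0.46 ± 0.26 (adjusted p = 0.489).

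**Figure D2:**
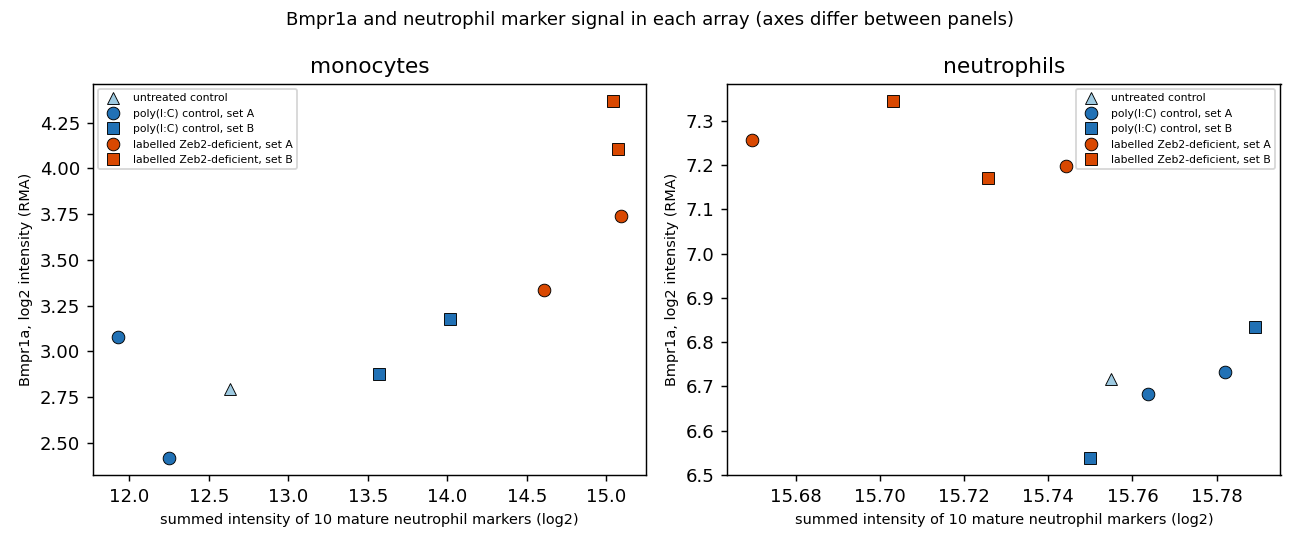
Bmpr1a log2 intensity (vertical axis) against the summed log2 intensity of 10 mature neutrophil markers (horizontal axis) in each monocyte array (left) and each neutrophil array (right), with axes that differ between panels; colours mark groups and shapes mark the array sets. In monocytes the labelled-deficient arrays lie at 14.6 to 15.1 on the marker axis and 3.34 to 4.37 for Bmpr1a, both above the controls, while in neutrophils the marker sum spans 15.67 to 15.79 and all 4 labelled-deficient arrays lie above the controls for Bmpr1a.

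The start-site windows of these 2 receptor genes are shown because they were the genes called in monocytes and because Zeb proteins bind E-boxes. The sequences are RefSeq's on GRCm38.p6 and run from 250 bases before to 50 bases after the annotated start, read on the gene's strand, with each CACCT on either strand in capitals (it is spelled AGGTG where the match is on the opposite strand). The Tgfbr2 window is chr9:116175314-116175613 and the Bmpr1a window chr14:34502497-34502796, both on the minus strand.
Tgfbr2: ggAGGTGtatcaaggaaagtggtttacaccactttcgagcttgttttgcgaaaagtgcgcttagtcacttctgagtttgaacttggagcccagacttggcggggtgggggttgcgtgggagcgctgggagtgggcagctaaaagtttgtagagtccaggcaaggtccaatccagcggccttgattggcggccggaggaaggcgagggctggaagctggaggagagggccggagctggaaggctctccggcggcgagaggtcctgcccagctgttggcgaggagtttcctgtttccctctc
Bmpr1a: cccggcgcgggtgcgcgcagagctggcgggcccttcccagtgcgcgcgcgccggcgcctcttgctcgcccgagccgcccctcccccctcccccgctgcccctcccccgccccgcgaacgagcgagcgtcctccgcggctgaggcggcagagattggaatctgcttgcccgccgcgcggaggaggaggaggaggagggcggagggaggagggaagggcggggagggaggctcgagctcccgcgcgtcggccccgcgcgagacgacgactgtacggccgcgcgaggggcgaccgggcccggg

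The Tgfbr2 window holds a single CACCT, 248 bases before its start, and the Bmpr1a window holds none. The annotated Bmpr1a gene reaches further upstream, to chr14:34503336, outside its window. Its window therefore covers a start inside the gene, and the outermost start was not analysed here. Start-site windows were read for 6 of the 10 genes, 7 windows in all. Acvrl1, Smad2, Smad4 and Smad7 were not analysed here in this way. The Zeb half-site CACCT occurred in 3 of them (Tgfb1, Tgfbr1 and Tgfbr2), and 51.9% of 32851 windows of the same length hold it. The full Zeb E-box CACCTG, which contains CACCT, was in none of the 7 and is in 20.2% of all windows. The palindromic Smad element GTCTAGAC was in none of the 7 and in 0.213% of all windows, and the GC-rich Smad element GGCGCC was in 3 of the 7 (Tgfbr1, Bmpr1a and Ski) and in 11.9% of all. These matches describe letters in the windows and no binding.

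Acvrl1 encodes a type I receptor best known from endothelial cells, where it binds BMP9 and BMP10. It was the second most divided of the 10 genes between cell types, at 5.96, 6.29, 6.22 and 6.09 in control monocytes and 8.31, 7.97, 8.05 and 8.33 in control neutrophils. Monocytes lay 4.07-fold lower, a difference of -2.03 ± 0.17 (adjusted p = 1.18e-08). Labelled-deficient monocytes read 5.94, 5.97, 5.26 and 5.74, of which replicate 2 lay inside the control range. The difference was -0.41 ± 0.17 (adjusted p = 0.167), and within set B it was -0.66 (adjusted p = 0.0388), with adjusted p up to 0.901 among the other alternatives. Labelled-deficient neutrophils read 7.89, 8.49, 7.85 and 7.90, with replicate 2 above and the other three below all controls, and the difference was -0.13 (adjusted p = 0.999).

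Smad2 and Smad3 are the receptor-regulated Smads of TGF-beta and activin. Smad2 had nearly the same signal in all groups, with 8.02, 8.12, 7.80 and 7.86 in control monocytes and 8.06, 8.13, 7.97 and 7.80 in control neutrophils. Labelled-deficient monocytes read 8.12, 8.12, 7.92 and 7.82, and labelled-deficient neutrophils 8.03, 8.24, 8.002 and 8.07. The intervals for its differences were -0.20 to 0.28 in monocytes, -0.15 to 0.34 in neutrophils and -0.28 to 0.20 between the control cell types, and none passed the test (adjusted p = 0.896, 0.999 and 0.782).

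Smad3 differed from Smad2 in being divided between the cell types, with 6.05, 6.39, 6.57 and 5.86 in control monocytes and 7.59, 7.46, 7.58 and 7.27 in control neutrophils. The difference was -1.25 ± 0.15, a 2.39-fold lower signal in monocytes (adjusted p = 1.50e-06). In labelled-deficient monocytes Smad3 read 6.53, 6.55, 6.59 and 6.31, within or near the top of a wide control range, and the difference of 0.28 had an interval of -0.05 to 0.60 (adjusted p = 0.347). In labelled-deficient neutrophils it read 7.48, 7.54, 7.04 and 7.21, a difference of -0.16 (adjusted p = 0.999). The monocyte minus the neutrophil change was 0.43 ± 0.22 (adjusted p = 0.411).

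Smad4 is the common partner that TGF-beta and BMP Smads share. It read 7.89, 7.88, 7.76 and 7.75 in control monocytes and 7.48, 7.86, 7.29 and 7.27 in labelled-deficient monocytes. Replicates 1, 3 and 4 lay below all controls and replicate 2 lay inside the control range. The difference of -0.35 ± 0.13 did not pass the test (unadjusted p = 0.0133, adjusted p = 0.110). It passed when labelled-deficient replicate 2 was left out (-0.47, adjusted p = 0.00663), when array set entered as a block (adjusted p = 0.0341) and within set B (-0.48, adjusted p = 0.0384). Over all alternatives its adjusted p ran from 0.00663 to 0.762. Control neutrophils read 7.996, 7.91, 7.91 and 7.86 and labelled-deficient neutrophils 8.19, 8.01, 7.87 and 7.94, which overlap (adjusted p = 0.999). The monocyte minus the neutrophil change was -0.43 ± 0.18 (adjusted p = 0.275), and -0.56 (adjusted p = 0.0311) without labelled-deficient monocyte replicate 2, with adjusted p up to 0.772 among the other alternatives. Control monocytes minus control neutrophils gave -0.10, with an interval of -0.36 to 0.17 (adjusted p = 0.509).

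Smad7, an inhibitory Smad that TGF-beta itself induces, read 5.08, 4.80, 5.06 and 4.94 in control monocytes and 5.84, 5.74, 5.50 and 5.70 in control neutrophils. Monocytes were lower without overlap, at -0.73 ± 0.12 or 1.66-fold (adjusted p = 5.13e-05). Labelled-deficient monocytes, at 5.30, 5.03, 5.23 and 5.35, lay above the controls except for replicate 2. That difference was 0.26 ± 0.12 (unadjusted p = 0.0460, adjusted p = 0.237). Labelled-deficient neutrophils read 5.86, 5.35, 5.70 and 5.61, around their controls, a difference of -0.07 (adjusted p = 0.999).

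Ski encodes a corepressor that binds Smad complexes and blocks their activity. Control monocytes read 6.53, 6.88, 6.81 and 6.81, and labelled-deficient monocytes 6.43, 6.61, 6.50 and 6.50. Control replicate 1 overlapped the labelled-deficient arrays, and the difference was -0.25 ± 0.12 (adjusted p = 0.247). Among the neutrophil arrays, controls gave 7.03, 6.94, 6.88 and 6.62 and labelled-deficient samples 7.06, 7.25, 6.91 and 7.14, a difference of 0.23 ± 0.12 (adjusted p = 0.989). The 2 changes had opposite signs, and their difference of -0.47 ± 0.17 gave the lowest p of the 10 genes in that contrast (unadjusted p = 0.0111, adjusted p = 0.175). Between control cell types Ski differed by -0.11 (adjusted p = 0.442), by -0.30 with quantile-normalised arrays (adjusted p = 0.0175) and by 0.06 within set B, where the sign turns. Its adjusted p reached 0.838 among the alternatives.

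**Figure D3:**
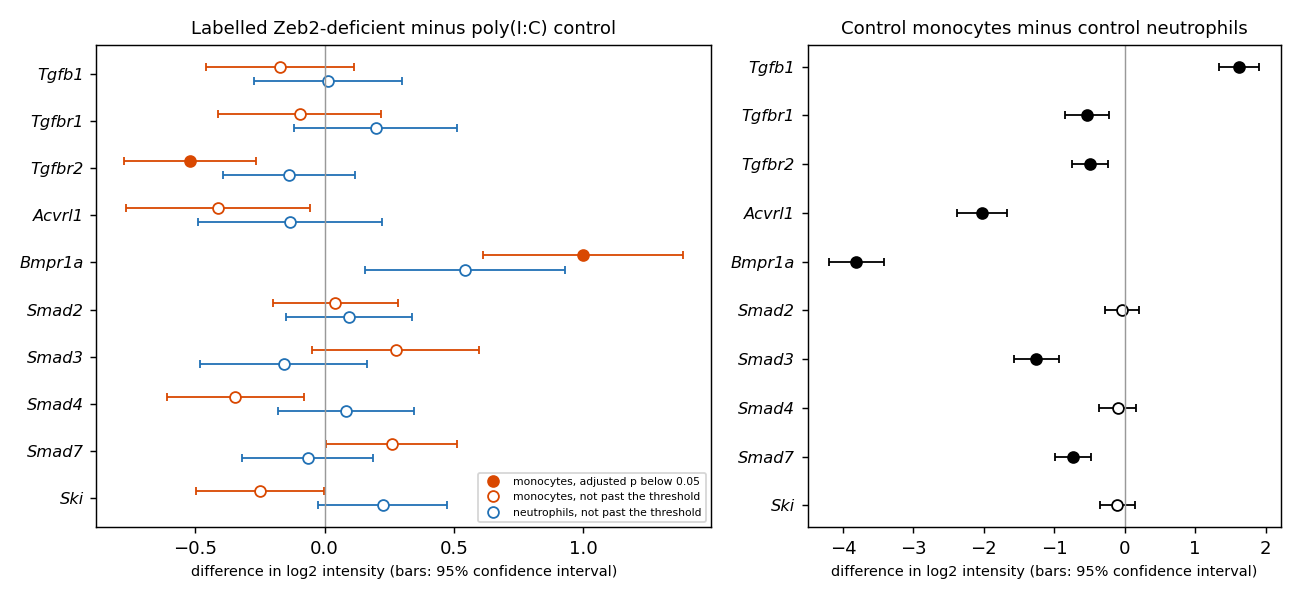
Differences in log2 intensity with 95% confidence intervals for the 10 genes: the change in labelled-deficient arrays relative to treated controls in monocytes (orange) and neutrophils (blue) on the left, and control monocytes minus control neutrophils on the right; filled points have an adjusted p below 0.05. On the left the filled points are Bmpr1a (1.001) and Tgfbr2 (-0.52) in monocytes, and on the right the filled points run from -3.81 for Bmpr1a to 1.62 for Tgfb1.

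The untreated arrays give the only view of these genes without poly(I:C), with 1 array per cell type and therefore no test. In monocytes 9 of the 10 genes lay within the range of the 4 treated controls, among them Tgfbr2 at 6.18 and Bmpr1a at 2.79, and Tgfb1 lay just above it at 9.42. In neutrophils 6 of 10 lay within the control range. Tgfbr1 at 8.31, Smad3 at 7.70 and Ski at 7.06 lay above it, and Smad4 at 7.86 lay below it by 0.0026. The untreated Bmpr1a signal of 6.72 in neutrophils fell among the controls and below all labelled-deficient arrays.

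Over all 18 arrays, the genes whose level followed Bmpr1a most closely were Cd55 (Pearson r = 0.991), Zfp831 (0.990) and Hdc (0.988). For Tgfbr2 they were Preb (0.965), Map3k3 (0.963) and Neurl3 (0.963). These coefficients describe 18 arrays that fall into 2 cell types, share array sets and are not independent, and they carry no p.

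Beyond these genes, lists of other pathway members held 105 symbols, of which 99 were on the array and 87 were tested. In monocytes labelled deficient 6 of the 87 rose (6.9%, beside 5.11% of all genes) and 4 fell (4.6%, beside 2.44%), with a median difference of -0.05 beside -0.03 over all genes. In neutrophils none was called in limma, and none had an unadjusted p below 0.05, beside 5.10% of all genes. For the difference between the changes none was called, with 11 of the 87 at an unadjusted p below 0.05, beside 13.5% of all genes. Between the control cell types 21 of 87 were higher in monocytes (24.1%, beside 29.9% of all genes) and 29 lower (33.3%, beside 28.7%). These shares of the 87 genes lie near those of all genes. The shorter lists that follow hold few genes each, and some of their shares lie further from those of all genes. None of these shares or counts is a result about the lists. With the replicate number as a block the monocyte count was 4 in place of 10, and it was 4 to 6 without control replicate 1, 2, 4 or 5 or without labelled-deficient replicate 1, 3 or 4. Of the 10 genes called in monocytes, Myc alone kept its call within set A. With only the arrays compared in the fit, the calls of Inhba, Itgav, Acvr1, Eng, Zfyve9 and Rbl1 were lost, and without the filter on low values those of Inhba, Zfyve9 and Rbl1. The calls lost on leaving out single arrays also belonged to these 6 genes. In the control cell types, the calls of Gdf3 and Fstl1 were lost within set A and those of Furin, Amhr2, Bmpr2, Grem1, Nog, Ctbp2 and Runx1 within set B.

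Among 16 tested ligands and latency proteins, 1 rose (6.25%, beside 5.11% of all genes) and 1 fell (6.25%, beside 2.44%) in labelled-deficient monocytes. Inhba, which encodes the activin A subunit, was at 5.45, 5.05, 4.80 and 5.05 in control and 5.75, 5.34, 6.22 and 6.60 in labelled-deficient monocytes, a rise of 0.89 ± 0.26 (adjusted p = 0.0431, and 0.0934 with the replicate block). Within set A the rise was 0.30 (adjusted p = 0.746) and within set B 1.48, and the adjusted p was 0.0535 without the filter on low values and 0.0755 with only the arrays compared. Its level in control neutrophils was higher still, with control monocytes at -3.16 relative to them (adjusted p = 8.91e-09). Itgav, the integrin alpha chain that helps free latent TGF-beta, fell by 0.55 on the log2 scale (SE 0.14, adjusted p = 0.0236, 0.0545 with the block and 0.0516 within set B). Between control cell types 3 of the 16 were higher in monocytes (18.8%, beside 29.9% of all genes) and 6 lower (37.5%, beside 28.7%). The higher ones included Nrros, which tethers latent TGF-beta on myeloid cells (1.20, adjusted p = 4.58e-04), and Gdf3 (0.73, adjusted p = 0.0166, with 0.31 within set A and 1.16 within set B), and the lower ones Furin, the protease that cuts the TGF-beta precursor (-0.61, adjusted p = 0.0157). Gdf3 lost its call without control monocyte replicate 4 or 5 and Furin without control neutrophil replicate 1.

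Of 11 tested receptors and co-receptors, 2 fell (18.2%, beside 2.44% of all genes) and none rose (beside 5.11%) in labelled-deficient monocytes. Acvr1, a BMP type I receptor, went from 5.42, 5.61, 5.19 and 4.999 to 4.74, 5.19, 4.33 and 4.58, a difference of -0.59 ± 0.17 (adjusted p = 0.0382, 0.102 with the block and 0.0514 with quantile-normalised arrays). Eng, the co-receptor endoglin, went from 5.38, 5.53, 5.47 and 5.26 to 4.63, 5.31, 4.67 and 4.32, a difference of -0.68 ± 0.17 (adjusted p = 0.0196, and 0.0649 with the block). In both, labelled-deficient replicate 2 was the array that reached into the control range. Both were higher in control monocytes than in control neutrophils, Acvr1 by 1.22 (adjusted p = 5.96e-06) and Eng by 0.76 (adjusted p = 0.00104). That is the opposite side from Bmpr1a and Acvrl1. Acvr1 read 3.80, 4.12, 4.05 and 4.34 in control neutrophils, below each array's 40th percentile of probe sets (4.41 to 4.46). Whether its neutrophil signal exceeds background was not tested, so its difference gives no size for the difference in RNA. Bmpr2 was also higher in monocytes (0.57, adjusted p = 0.0380) and Amhr2 lower (-0.53, adjusted p = 4.60e-04). Bmpr2 lost that call with quantile-normalised arrays (adjusted p = 0.0613) and without any single control array other than neutrophil replicate 2.

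Of the other 4 Smads tested (Smad1, Smad5, Smad6 and Smad9), none passed the test with genotype in limma. In monocytes Smad5 had an unadjusted p below 0.05 (-0.33 ± 0.14, adjusted p = 0.172), and in neutrophils none had. Smad5 and Smad1, the receptor-regulated Smads of BMPs, were higher in control monocytes by 1.09 ± 0.14 (adjusted p = 2.08e-06) and 0.83 ± 0.15 (adjusted p = 9.52e-05). Smad3 lay on the opposite side.

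Among 20 tested Smad regulators and corepressors, only Zfyve9 was called in labelled-deficient monocytes, where it fell (5% of the list, beside 2.44% of all genes). Zfyve9 encodes SARA, an anchor that presents Smad2 and Smad3 to the receptor. It read 6.94, 6.95, 6.94 and 6.69 in controls and 6.50, 6.67, 6.00 and 5.21 in labelled-deficient arrays, a difference of -0.79 ± 0.23 (adjusted p = 0.0444, and 0.111 with the block), and without labelled-deficient replicate 4 the difference was -0.49 (adjusted p = 0.130). It was -0.36 within set A (adjusted p = 0.551) and -1.21 within set B, and its call was also lost with arrays centred on the median. The signal in control neutrophils lay far below, with monocytes higher by 3.75 ± 0.23 (adjusted p = 2.13e-10). Control neutrophils read 2.81, 3.04, 3.19 and 3.49, below each array's 40th percentile of probe sets (4.41 to 4.46). Whether the neutrophil signal of Zfyve9 exceeds background was not tested. The difference is therefore one of signals and gives no size for the difference in RNA. Of the 20, 4 were higher (20%, beside 29.9% of all genes) and 8 lower (40%, beside 28.7%) in control monocytes. Besides Zfyve9 the higher ones included Fkbp1a, whose product holds type I receptors inactive (2.30, adjusted p = 2.04e-08), and the corepressor Tgif1 (1.47, adjusted p = 3.47e-06), and the lower ones Ppm1a, a phosphatase of Smads (-0.85, adjusted p = 1.10e-05).

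Of 8 tested extracellular antagonists, Twsg1, a secreted BMP binder, rose in labelled-deficient monocytes (12.5% of the list, beside 5.11% of all genes). It went from 5.07, 4.85, 5.32 and 5.14 to 5.77, 5.36, 5.79 and 6.06 without overlap, a rise of 0.65 ± 0.14 (adjusted p = 0.00543, and 0.0211 with the block). In control monocytes 5 of the 8 were lower than in control neutrophils (62.5%, beside 28.7% of all genes) and none higher (beside 29.9%). The lower ones included Fstl3 (-0.70, adjusted p = 2.20e-04), Grem1 (-0.55, adjusted p = 2.79e-04), Fstl1 (-0.38, adjusted p = 0.00855) and Nog (-0.34, adjusted p = 0.00399).

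Of 13 tested transcription partners and corepressors, Rbl1, the pocket protein p107, rose in labelled-deficient monocytes (7.69% of the list, beside 5.11% of all genes). It read 6.97, 7.005, 6.73 and 6.62 in controls and 7.42, 7.15, 7.40 and 7.41 in labelled-deficient arrays, a rise of 0.52 ± 0.15 (adjusted p = 0.0403, and 0.0940 with the block). Within set A the rise was 0.30 (adjusted p = 0.743), and with quantile-normalised arrays the adjusted p was 0.0511. Of the 13, 6 were higher (46.2%, beside 29.9% of all genes) and 1 lower (7.69%, beside 28.7%) in control monocytes. The higher ones included the histone deacetylase gene Hdac2 at 2.04 (adjusted p = 6.996e-09), Rbl1 at 1.79 (adjusted p = 9.65e-09), Ctbp2, a Zeb2 corepressor, at 0.43 (adjusted p = 0.00561) and Runx1 at 0.38 (adjusted p = 0.00582). Ctbp2 was not called with quantile-normalised arrays (0.22, adjusted p = 0.134) or within set B (0.26, adjusted p = 0.220), nor was Runx1 within set B (0.28, adjusted p = 0.129).

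The list of 16 tested genes known as Smad targets held 3 that rose in labelled-deficient monocytes (18.8%, beside 5.11% of all genes) and none that fell (beside 2.44%). Myc, a growth-promoting transcription factor that TGF-beta represses, read 6.05, 6.53, 6.36 and 6.22 in controls and 7.45, 7.39, 8.06 and 8.40 in labelled-deficient arrays, a rise of 1.54 ± 0.23 (adjusted p = 3.26e-04). Bhlhe40, a basic helix-loop-helix repressor, went from 5.46, 5.01, 4.59 and 5.16 to 6.28, 5.78, 6.79 and 6.79, a rise of 1.35 ± 0.21 (adjusted p = 4.94e-04). Id2, an inhibitor of E proteins that BMPs induce, went from 8.19, 8.38, 8.51 and 8.19 to 9.61, 8.67, 9.17 and 9.33, a rise of 0.88 ± 0.18 (adjusted p = 0.00395). None of the 3 overlapped between the groups, and all 3 kept the call with the replicate block, but within set A only Myc did (1.13, adjusted p = 0.0157), with Bhlhe40 at 0.80 and Id2 at 0.86. The 3 genes have many inputs besides Smads. Between the control cell types 3 of the 16 were higher in monocytes (18.8%, beside 29.9% of all genes) and 8 lower (50%, beside 28.7%). Itgb7 at 2.54 (adjusted p = 5.41e-09), Myc at 1.84 (adjusted p = 2.05e-06) and Tsc22d1 at 1.38 (adjusted p = 1.53e-04) lay on the higher side and Thbs1 at -2.36 (adjusted p = 8.83e-05, and -1.42 within set B) on the lower.

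**Figure D4:**
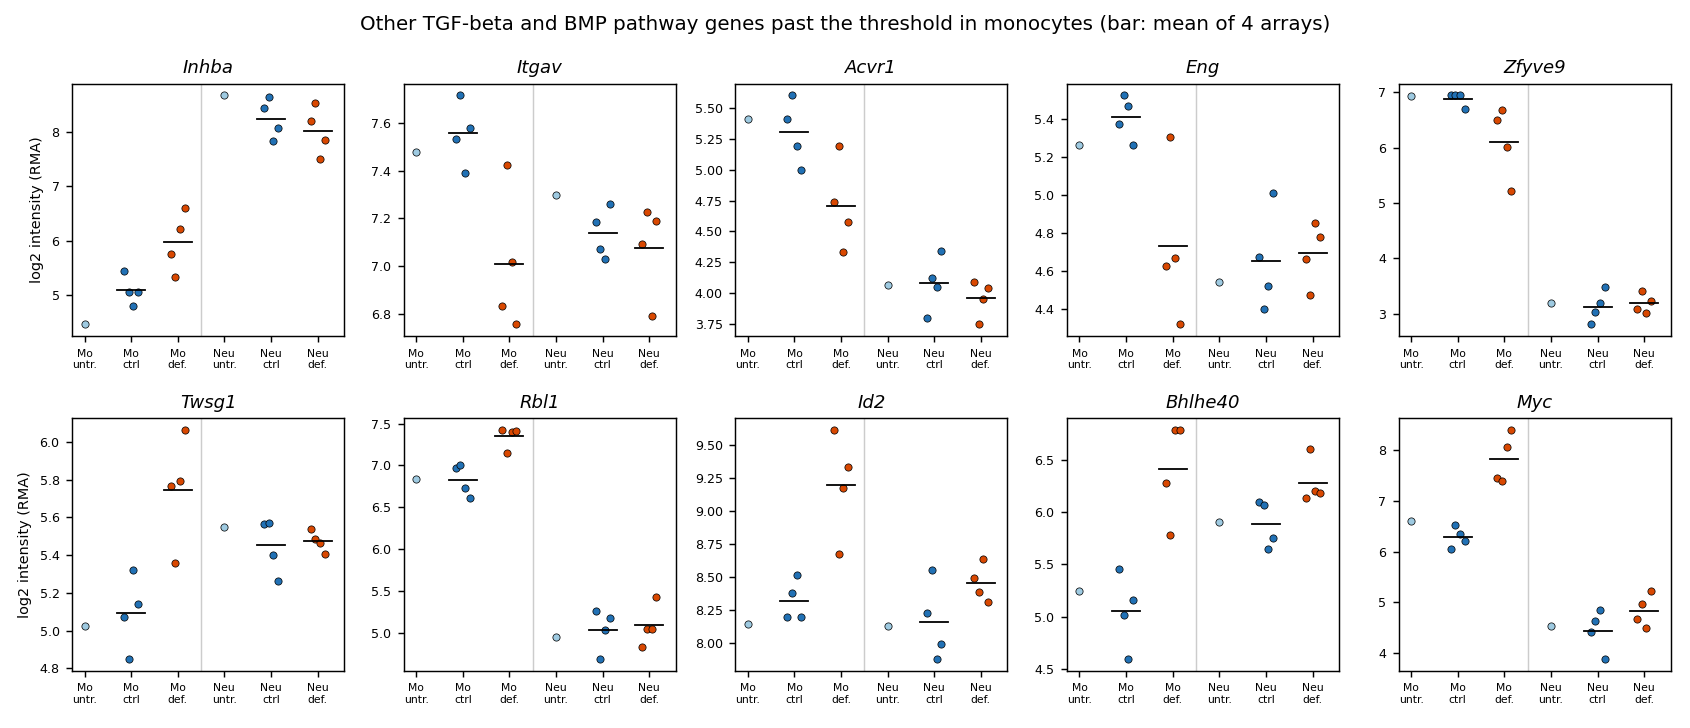
Log2 RMA intensity (vertical axes, a separate range for each gene) of the 10 other pathway genes called in monocytes labelled Zeb2-deficient, in every array, by cell type and group with the same abbreviations (Mo, Neu, untr., ctrl, def.); points are arrays and bars are means of 4 arrays. Myc moves from 6.05 to 6.53 in control monocytes to 7.39 to 8.40 in labelled-deficient monocytes, and in Eng, Acvr1 and Itgav a labelled-deficient array at the top of its group reaches the control range. Inhba overlaps as well, with labelled-deficient monocyte replicate 2 at 5.34 below control monocyte replicate 1 at 5.45.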

How the data were processed

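Arrays of Ly-6C(hi) monocytes and neutrophils (9 per cell type, 18 in all) were used as the authors deposited them, as log2 intensities after RMA, per the submitters' processing notes; its version and settings were not given in the sources used here. Per the labels, RNA was isolated with RNAqueous-Micro and amplified with Ovation PicoSL. Of 30177 probe sets, 21789 carry 1 gene symbol in the platform annotation, 1621 several and 6767 none; the probe set with the highest mean stood for each of 19938 genes. Genes were tested when 4 or more arrays put them above the 40th percentile of that array (13387) with limma 3.58.1 in R 4.3.3 (group means over all 18 arrays, trended variance, 12 residual degrees of freedom, two-sided, Benjamini-Hochberg adjusted p below 0.05); the script was checked on simulated data. The precision is limited by 4 arrays per group. The genes and lists were chosen with earlier results of these data known. Named genes are the 10 genes, Zeb2, up to 4 called genes with the smallest p per list and contrast, and the 3 genes most like Tgfbr2 and Bmpr1a. Titles give replicate numbers to both genotypes. Same-numbered arrays deviated together from their group means in 6 of 6 pairs (r = 0.183 to 0.428). All other cross-genotype pairs of the same cell type and set did so too, and only 3 of 6 pairs were closer than those. The check therefore cannot tell pairing by number from the array sets. The fit as reported holds no pairing term, and the replicate block was run as an alternative. Alternatives were another normalization, filter, probe summary, variance model, array choice, the replicate and array set blocks, each set alone and leaving out each array. Motifs were searched in RefSeq windows of GRCm38.p6. The amino acid sequences were not analysed here.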

Additional observations from a re-analysis of the deposited data

Results flagged for a closer look

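Single arrays that stood apart from the other 3 of their group were looked for in 84 groups of 4, where chance alone gives about 1 in 20; 7 were found. Among the 10 genes these were Acvrl1 at 8.49 in neutrophils labelled Zeb2-deficient (replicate 2, above the others), Tgfb1 at 7.43 in neutrophils labelled Zeb2-deficient (replicate 3, below the others) and Tgfbr2 at 6.41 in control neutrophils (replicate 5, below the others). Zeb2 read 10.1 in control monocyte replicate 1, above the others. In the wider pathway, Bhlhe40 read 6.61 in labelled-deficient neutrophil replicate 2, above the others, Rbl1 read 7.15 in labelled-deficient monocyte replicate 2, below the others, and Zfyve9 read 6.69 in control monocyte replicate 5, below the others.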

How the results depend on the processing

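Bmpr1a and Tgfbr2 kept the direction of their monocyte change under every alternative run. With only the arrays compared in the fit, 500 genes, 1 of the 10 genes (Bmpr1a) and 4 other pathway genes were called in monocytes and 9 genes in neutrophils. With the replicate block, 4 other pathway genes were called in monocytes and 1 in the difference between the cell types; the block changed no call of the 10 genes. With array set as a block, 566 genes were called in the difference. Within set A, 215 genes, 0 of the 10 and 2 other pathway genes were called in monocytes, 3 genes in neutrophils, and 72 genes and 1 other pathway gene in the difference. Within set B, 1724 genes were called in monocytes, 731 genes and 2 other pathway genes in the difference, and 32 other pathway genes between the control cell types. Signs that turned belonged to differences not called in the fit as reported: in set A, Tgfb1 (-0.015) and Acvrl1 (0.051) in neutrophils and Smad2 in the difference (0.0034), and in set B, Smad7 in neutrophils (0.056) and Ski between control cell types (0.062), a difference that was called with quantile-normalised arrays (-0.30, adjusted p = 0.0175).

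Leaving out each array in turn gave 620 to 2001 genes in monocytes, the highest without labelled-deficient replicate 2 and the lowest without labelled-deficient replicate 4 (621 without replicate 3), with 2 to 3 of the 10 genes and 4 to 14 other pathway genes. In neutrophils it gave 8 to 17 genes (8 without labelled-deficient replicate 1, 9 without control replicate 4) and 0 to 0 of the 10. The difference had 245 to 904 genes, 0 to 1 of the 10 and 0 to 9 other pathway genes, each highest without labelled-deficient monocyte replicate 2, and 1 pathway gene without control neutrophil replicate 5. Between control cell types it gave 7034 to 7440 genes, 7 to 7 of the 10 and 44 to 48 other pathway genes. Smad2 ranged from -0.0098 to 0.0995 in monocytes, -0.104 to 0.0093 in the difference and -0.101 to 0.012 between control cell types, Tgfb1 from -0.089 to 0.078 and Smad7 from -0.141 to 0.026 in neutrophils. No scaling moved the median of all genes by over 0.1. Groups of 4 arrays and the dim monocyte signal of Bmpr1a limit what can be resolved.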
